A study of Mus musculus with 6 samples.

Results

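Small leucine-rich proteoglycans are secreted matrix proteins built around a stack of leucine-rich repeats, and the 10 genes examined here, Dcn, Bgn, Aspn, Ogn, Omd, Prelp, Lum, Fmod, Kera and Podn, were taken by name from 41126 genes in the table of all genes. They were measured by RNA-seq in 6 cultures of mouse dermal fibroblasts, 3 labelled Control and 3 labelled GOF, from postnatal day 4 animals of mixed CD1, C57Bl6 background. The GOF cultures had the genotype AdCre; Ctnnb1 delta ex3/+, in which Adenovirus-Cre removes exon 3 of the β-catenin gene and leaves a stabilized protein. The Control cultures had the genotype AdGFP; +/+ in the labels, whereas the study's methods describe the same Ctnnb1 transgene in cells given Adenovirus-GFP, and the treatment protocol in the labels names adCre at 366 to 500 MOI for 6 h for every culture. Virus and β-catenin state therefore cannot be told apart between the groups. The cells were passaged primary cultures, kept separate by animal, from 4 animals. In the sample labels Control replicate 0 shares its animal with GOF replicate 2, as Control replicate 2 does with GOF replicate 0, and each of the other two cultures has an animal of its own. Libraries held 35980831 to 42834467 fragments. Axin2, a direct target of β-catenin, was measured at 0.136 to 0.177 FPKM (fragments scaled by transcript length and library size) in Control and 14.4 to 19.2 FPKM in GOF libraries.

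As background, these proteins bind collagen fibrils and regulate how fibrils form and pack in skin, tendon, bone and cornea. Class I members (decorin, biglycan and asporin) are close relatives, of which decorin and biglycan carry chondroitin or dermatan sulfate chains. Class II members (lumican, fibromodulin, keratocan, osteomodulin and the protein of Prelp) mostly carry keratan sulfate or have a charged N-terminal stretch. Osteoglycin belongs to class III and podocan to class V. Decorin and biglycan also bind growth factors such as TGF-β and cell surface receptors. Decorin and lumican are abundant in dermis.

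Most of these genes lie in clusters, and the clusters are used below to order the results. On chromosome 13, Aspn (49544443 to 49567565), Omd (49582462 to 49592822) and Ogn (49608046 to 49624501) follow each other on the plus strand of GRCm38, the assembly named mm10, next to the related gene Ecm2 (49504810 to 49532789). Dcn (97479609 to 97518143), Lum (97565128 to 97572703) and Kera (97606879 to 97613692) share chromosome 10 with the related gene Epyc (97644068 to 97682454). Prelp (133910304 to 133921414) and Fmod (134037254 to 134048277) lie on chromosome 1 with the related gene Optc between 133897199 and 133907999. Bgn (73483602 to 73495933) is on chromosome X and Podn (108014791 to 108096445) on chromosome 4.

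RefSeq promoter windows (GRCm38.p6) were at hand for 8 of the 10 genes, all except Dcn and Lum. The 250 bases before the start site are printed for the 3 members of the chromosome 13 cluster, which had lower levels together, and for Bgn, the gene with the highest mean level in GOF libraries. Capitals mark TATAAA on either strand in Aspn and Ogn and CTTTGAA, a variant of the motif bound by Tcf/Lef factors, in Bgn.
Aspn, chr13:49544193-49544442, plus strand: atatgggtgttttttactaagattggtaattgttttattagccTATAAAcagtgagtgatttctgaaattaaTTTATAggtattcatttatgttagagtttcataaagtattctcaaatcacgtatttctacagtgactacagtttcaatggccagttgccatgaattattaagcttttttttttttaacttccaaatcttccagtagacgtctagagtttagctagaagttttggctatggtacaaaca
Omd, chr13:49582212-49582461, plus strand: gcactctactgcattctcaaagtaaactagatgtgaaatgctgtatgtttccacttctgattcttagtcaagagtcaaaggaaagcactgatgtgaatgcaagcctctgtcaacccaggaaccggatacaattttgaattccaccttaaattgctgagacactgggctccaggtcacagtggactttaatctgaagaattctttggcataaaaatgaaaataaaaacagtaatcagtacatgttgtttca
Ogn, chr13:49607765-49608014, plus strand: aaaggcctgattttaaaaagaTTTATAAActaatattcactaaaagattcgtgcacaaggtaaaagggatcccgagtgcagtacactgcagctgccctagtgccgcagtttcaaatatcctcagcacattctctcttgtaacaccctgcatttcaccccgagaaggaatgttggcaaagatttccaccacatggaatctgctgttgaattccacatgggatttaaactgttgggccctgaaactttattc
Bgn, chrX:73483351-73483600, plus strand: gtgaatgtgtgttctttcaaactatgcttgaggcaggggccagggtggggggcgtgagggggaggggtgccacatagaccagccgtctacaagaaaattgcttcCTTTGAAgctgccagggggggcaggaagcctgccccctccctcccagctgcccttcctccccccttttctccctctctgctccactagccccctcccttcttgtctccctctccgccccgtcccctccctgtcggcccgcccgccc
Windows of 300 bases, from 250 before to 50 after the start site, were searched on both strands. The Tcf/Lef-type motif was written as CTTTGAA, present in 5.14% of all 32851 windows, as CTTTGAT, present in 3.73%, as CTTTGTA, present in 3.63%, and as CTTTGTT, present in 5.85%. TATAAA was searched as well. A CTTTG motif was found in 2 of the 8 genes, as CTTTGAA at position -146 from the start site of Bgn and as CTTTGTA at position -138 of Kera. The whole Kera window (97606955 to 97607254) lies inside the gene span given above, which begins at 97606879, before the RefSeq start site used here. Among all windows, 16.9% held at least 1 of the 4 CTTTG motifs. TATAAA was found in 2 of the 8 genes, beginning at -207 and -178 of Aspn and at -229 and -227 of Ogn, where the matches to both strands overlap, and in 13.6% of all windows. The windows of Omd, Prelp, Fmod and Podn held none of these letters.

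The comparison of GOF with Control asks how the RNA of these genes differs between the groups. The groups differ in virus and β-catenin state, and in genotype as labelled. By the animal numbers in the labels, 2 animals gave cultures to both groups, and within each of them the inherited genotype is shared. Of the 10 genes, 5 were called lower in GOF (Aspn, Ogn, Podn, Omd and Dcn), against a background of 5.64% of 15462 genes tested. A call required an adjusted p under 0.05 by edgeR's quasi-likelihood test and a fold change over 2. None was called higher, where the background was 6.69%, and the count of higher genes was also 0 at an unadjusted p under 0.05 and with DESeq2. By adjusted p alone 6 of the 10 were lower (background 10.2%), with Bgn the addition, and 0 were higher (background 11.1%). FPKM did not overlap between the groups for the same 6 genes, all lower in GOF, while 19.2% of all genes tested were lower without overlap and 20.3% higher. The fitted difference was below 0 for 9 of the 10, and its median was -1.62 on the log2 scale, beside -0.0165 over all genes tested. All 10 genes passed the filter on low counts. With a test against a fold change of 2 itself, 2 genes were called lower, and without Control replicate 1 or without Control replicate 2 the count was 3. In bulk RNA, fewer cells that express a gene and less RNA per cell cannot be told apart.

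**Figure D1:**
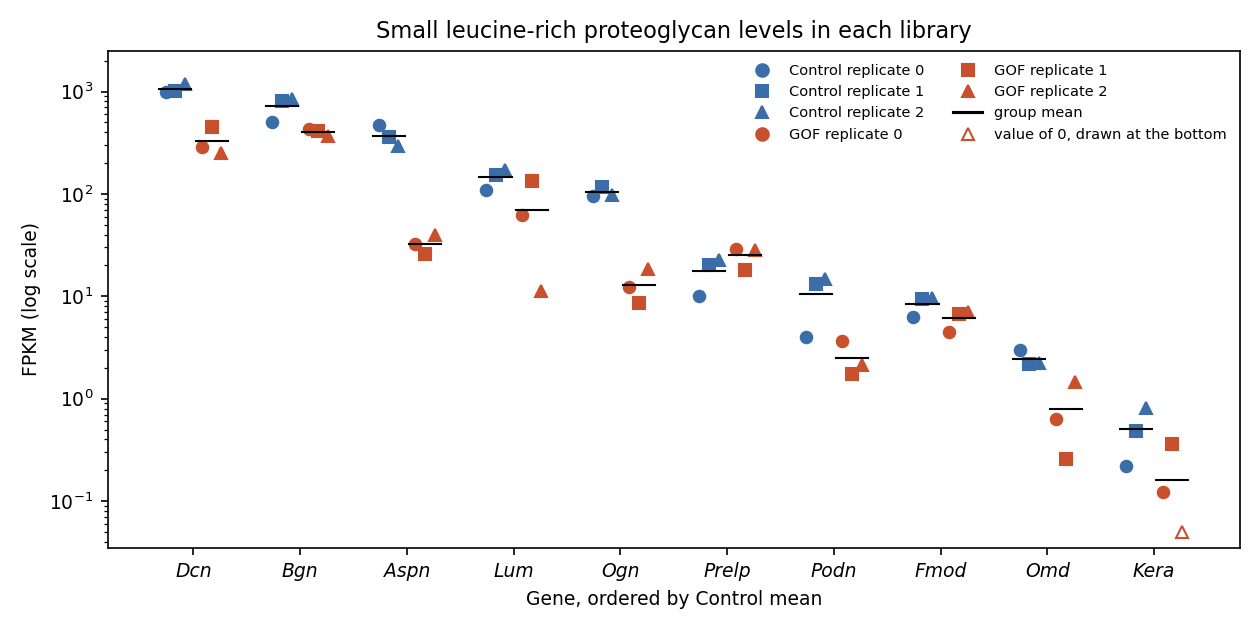
FPKM of each of the 10 genes in every library on a log axis, Control libraries in blue and GOF libraries in red, with black bars for the group means and a value of 0 drawn open at the bottom. Aspn and Ogn show the widest gaps between the groups, whereas the libraries of Prelp, Lum, Fmod and Kera overlap.

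Added together, the 10 genes reached 2179, 2501 and 2631 FPKM in the Control libraries and 866, 1054 and 730.2 FPKM in the GOF libraries. The sums did not overlap, with means of 2437 ± 233 and 883 ± 163 FPKM (SD, n = 3 each). As a share of all fragments they made up 0.533% to 0.653% of each Control library and 0.164% to 0.256% of each GOF library. Dcn and Bgn made up most of both sums. Dcn had 43.5% ± 2.46 of the summed FPKM in Control and 36.8% ± 5.08 in GOF (SD, n = 3 each), with overlapping libraries. The share of Bgn was 29.2% ± 5.37 in Control and 46.5% ± 6.67 in GOF, and that of Aspn was 15.6% ± 5.33 and 3.89% ± 1.49, each without overlap. Prelp, a minor member in Control at 0.709% ± 0.217, stood at 2.98% ± 1.13 in GOF, again without overlap. The two-sided exact permutation p of these shares was 0.1 for Bgn, Aspn and Prelp, the smallest possible here, and 0.2 for Dcn. A share can be larger only because the sum is smaller. The FPKM of Prelp itself overlapped between the groups, and that of Bgn was lower in GOF.

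**Figure D2:**
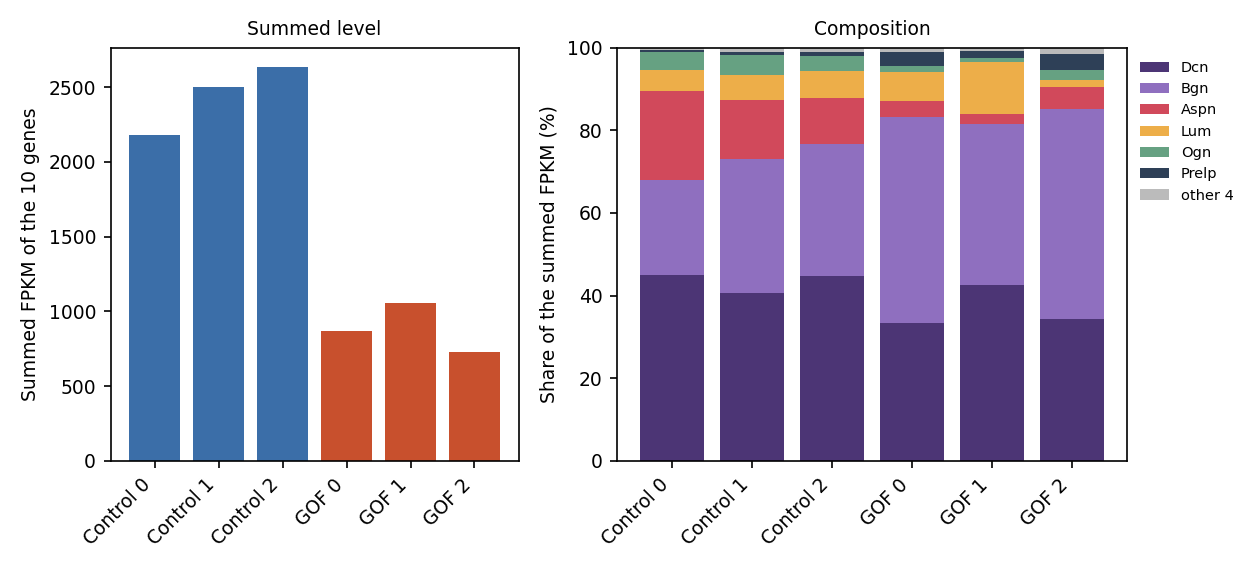
Summed FPKM of the 10 genes in each library (left) and the percentage of that sum from each gene (right), with the 4 least abundant genes merged in grey. All 3 GOF bars on the left stand below the Control bars, and on the right the red band of Aspn is narrower and the light purple band of Bgn wider in GOF libraries.

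In Control, the order of mean FPKM was Dcn, Bgn, Aspn, Lum, Ogn, Prelp, Podn, Fmod, Omd and Kera. The ranges of Lum and Ogn, of Prelp and Podn, and of Podn and Fmod overlapped across libraries, while those of the other neighbours in the order did not. Within each library the order of Lum over Ogn and of Prelp over Podn held in 3 of 3, and that of Podn over Fmod in 2 of 3. In GOF the order was Bgn, Dcn, Lum, Aspn, Prelp, Ogn, Fmod, Podn, Omd and Kera. There the ranges of Bgn and Dcn, Lum and Aspn, Aspn and Prelp, Prelp and Ogn, and Omd and Kera overlapped. Within libraries, Aspn over Prelp and Prelp over Ogn held in 3 of 3, and the other overlapping orders in 2 of 3. Control replicate 0 was the lowest Control library for 8 of the 10 genes and the highest for the other two, Aspn and Omd. Without it, 5 genes were called lower, but Omd was no longer among them (edgeR adjusted p = 0.0647) and Bgn was (0.00401).

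Among the class I genes, Aspn had the largest difference of all 10 genes. Aspn encodes asporin, which binds collagen and carries a run of aspartate residues. It stood at 467, 356 and 291 FPKM in Control replicates 0, 1 and 2 and at 32.4, 26.0 and 39.8 FPKM in the GOF replicates. Every GOF library was far below every Control library, and Aspn fell by 3.51 on the log2 scale (SE 0.207, edgeR adjusted p = 0.000138), an 11.4-fold lower level. Dcn encodes decorin, the most abundant of these transcripts in Control. It measured 982, 1016 and 1175 FPKM in Control and 289, 450 and 251 FPKM in GOF, without overlap. Dcn fell by 1.67 on the log2 scale (SE 0.277, edgeR adjusted p = 0.00584), a 3.19-fold lower level. Against a fold change of 2 the adjusted p of Dcn was 0.0979. Bgn encodes biglycan. Its levels were 501, 813 and 844 FPKM in Control and 432, 409 and 370 FPKM in GOF. The groups did not overlap, although Control replicate 0 lay closer to the GOF libraries than to the other Control libraries. The difference of Bgn was -0.83 on the log2 scale (SE 0.216, 95% interval -1.34 to -0.33, edgeR adjusted p = 0.0311), so it passed the adjusted p and missed the fold threshold. Without Control replicate 0 the log2 difference of Bgn was -1.04 (edgeR adjusted p = 0.00401), which passed both. Because Bgn is X-linked, sex genes were examined: Xist, made from the inactive X chromosome, was at 16.6 to 33.4 FPKM in all 6 libraries with overlapping groups, and of the Y-linked genes Ddx3y and Eif2s3y were at 0 in all of them, whereas Kdm5d (12 to 24 fragments) and Uty (9 to 45 fragments) were detected in each library.

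Ogn, the class III gene, encodes osteoglycin, also named mimecan. Its levels were 95, 118 and 98.3 FPKM in Control and 12.3, 8.55 and 18.3 FPKM in GOF. No GOF library came near the Control range, and Ogn fell by 3.02 on the log2 scale (SE 0.196, edgeR adjusted p = 0.000186), an 8.10-fold lower level. Podn, the class V gene, encodes podocan, and read 3.97, 13.2 and 14.7 FPKM in Control and 3.67, 1.74 and 2.12 FPKM in GOF. Control replicate 0 and GOF replicate 0 were nearly level, so the gap between the groups was narrow. Podn fell by 2.11 on the log2 scale (SE 0.489, edgeR adjusted p = 0.0214). The call was lost without Control replicate 1 (adjusted p = 0.0626), Control replicate 2 (0.0586), GOF replicate 1 (0.0737) or GOF replicate 2 (0.0597). Podn overlaps Scp2 on the same strand in the annotation, so the division of fragments between them is uncertain. Scp2, a lipid carrier gene at a higher level, differed by -0.79 (log2, edgeR adjusted p = 0.00373), under the fold threshold.

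Of the 5 class II genes, 1 was called. Omd encodes osteomodulin, known from mineralized tissue, and was scarce in these cells, at 2.96, 2.20 and 2.23 FPKM in Control (205, 184 and 189 fragments) and 0.635, 0.260 and 1.46 FPKM in GOF (53, 24 and 105 fragments). All GOF libraries were below Control, although GOF replicate 2 stood well above the other two, and Omd fell by 1.74 on the log2 scale (SE 0.459, edgeR adjusted p = 0.0333). The call was lost without Control replicate 0 (adjusted p = 0.0647), Control replicate 1 (0.0720), Control replicate 2 (0.0678) or GOF replicate 0 (0.120).

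Lum, which encodes lumican, a keratan sulfate proteoglycan of cornea and dermis, had the widest spread among abundant members. It measured 109, 153 and 173 FPKM in Control but 62.4, 134 and 11.3 FPKM in GOF. GOF replicate 1 lay within the Control range and GOF replicate 2 far below it. The log2 difference of Lum was -0.99 (95% interval -2.72 to 0.73, edgeR adjusted p = 0.383), and the interval holds both a large fall and 0. With a replicate block by animal as a fixed term, which leaves 1 residual degree of freedom, the log2 difference of Lum was -2.42 (edgeR adjusted p = 0.00916), and with the animal as a random effect it was -1.96 (limma adjusted p = 0.0563). Control replicate 1 and GOF replicate 1 each have an animal of their own, so they do not inform the difference in the fixed-term fit. That fit therefore sets aside the GOF library with the highest Lum and Kera. Kera encodes keratocan of the corneal stroma and was near the limit of detection, with 18, 47 and 79 fragments in Control and 12, 36 and 0 in GOF. The log2 difference of Kera was -1.56 (95% interval -3.83 to 0.71, edgeR adjusted p = 0.299). It also passed both thresholds with a block by animal, at -3.19 as a fixed term (edgeR adjusted p = 0.0141) and -3.12 as a random effect (limma adjusted p = 0.0381).

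Fmod and Prelp had the smallest differences. Fmod encodes fibromodulin, a collagen-binding protein abundant in tendon, and stood at 6.27, 9.40 and 9.68 FPKM in Control and 4.50, 6.79 and 7.04 FPKM in GOF. The groups overlapped, with a log2 difference of -0.51 (95% interval -1.05 to 0.03, edgeR adjusted p = 0.164). Prelp encodes a protein with an N-terminal stretch rich in arginine and proline that binds heparan sulfate. It was the one member with a fitted value above 0, at 10.0, 20.1 and 22.7 FPKM in Control and 28.8, 18.2 and 28.5 FPKM in GOF. GOF replicate 1 lay inside the Control range, and the log2 difference of 0.48 (95% interval -0.27 to 1.22, edgeR adjusted p = 0.331) did not pass. With a fixed block by animal, to which GOF replicate 1 adds nothing, the log2 difference of Prelp was 0.93 and passed the adjusted p alone (edgeR adjusted p = 0.0452). With the animal as a random effect it was 0.67 (limma adjusted p = 0.107).

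**Figure D3:**
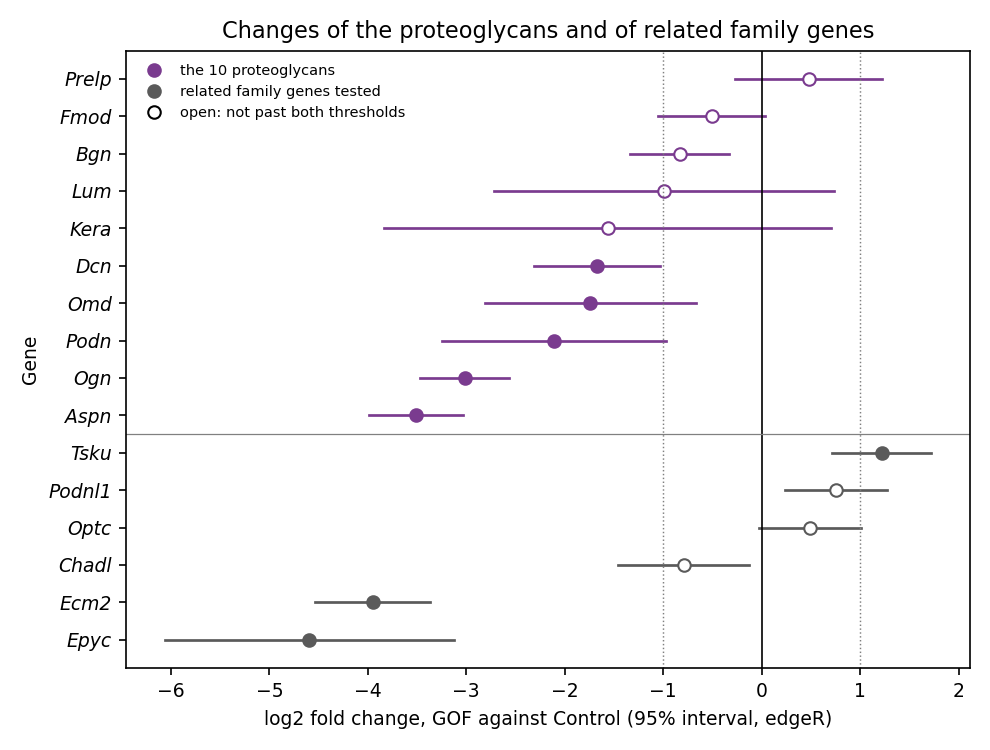
Fitted log2 fold change of GOF against Control with its 95% interval for the 10 genes (purple) and for the related family genes that could be tested (grey), where filled points passed both thresholds and dotted lines mark a fold change of 2. Aspn and Ogn lie at -3.51 and -3.02 with narrow intervals, Lum and Kera have wide intervals that include 0, and the fitted value of Epyc depends on the handling of its near-zero GOF counts.

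The 2 animals represented in both groups allowed differences within an animal. Between GOF replicate 2 and Control replicate 0, log2 FPKM differed by -3.55 for Aspn, -2.38 for Ogn, -1.97 for Dcn, -1.02 for Omd, -0.90 for Podn and -0.44 for Bgn. Between GOF replicate 0 and Control replicate 2 the differences were -3.17 for Aspn, -3.00 for Ogn, -2.02 for Dcn, -1.81 for Omd, -2.0 for Podn and -0.97 for Bgn. All 6 genes were thus lower in GOF within both animals. Lum was lower in both as well, by -3.27 and -1.47 on the log2 FPKM scale. Prelp was higher in both, by 1.5 and 0.34, whereas Fmod differed in sign, at 0.17 and -1.11. These are single differences without a test.

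Genes of a cluster did not all move by the same amount. On chromosome 13 all 3 members were called lower, and so was Ecm2, which encodes a related leucine-rich matrix protein, at 2.25, 2.58 and 2.15 FPKM in Control and 0.164, 0.0941 and 0.201 FPKM in GOF. The log2 difference of Ecm2 was -3.95 (SE 0.251, edgeR adjusted p = 0.000181). The cluster lies within Cenpp, a centromere protein gene on the opposite strand. Cenpp was at 3.90, 1.88 and 1.74 FPKM in Control and 0.954, 1.42 and 1.0 FPKM in GOF, a log2 difference of -1.14 (edgeR adjusted p = 0.0810), which passed with DESeq2 (adjusted p = 0.0304) and with a block by animal (edgeR adjusted p = 0.0294 as a fixed term, limma 0.0301 as a random effect). The libraries were stranded, but whether the counting used strand is not given in the sources used here, and the levels of Omd and Ecm2 were as low as that of Cenpp. Further out, Nol8, Iars, Ippk, Bicd2 and the snoRNA gene Gm25394 did not pass either threshold, with log2 differences between -0.01 and 0.33. Fgd3, a guanine nucleotide exchange factor gene, was called higher at 1.24 (log2, edgeR adjusted p = 0.0372), a call lost without GOF replicate 2 (adjusted p = 0.0827), GOF replicate 0 (0.108) or any one Control library (0.0663 to 0.105). Within 250 kb of the 3 members, 8 genes were tested, of which 1 was called lower (background 5.64%) and 1 higher (background 6.69%).

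On chromosome 10 Dcn was called lower, while Lum and Kera did not pass. Epyc, which encodes epiphycan of cartilage, had 36, 35 and 30 fragments in Control and 0, 1 and 3 in GOF. Against a floor of 3 fragments per GOF library it was at least 11.7-fold lower, and it was called (edgeR adjusted p = 0.00283). Epyc was the one neighbour within 250 kb that could be tested. On chromosome 1 neither Prelp nor Fmod passed, and Optc, which encodes opticin of the eye, differed by 0.49 (log2, edgeR adjusted p = 0.164). Of 8 neighbours tested there, 3 were called higher (background 6.69%). Atp2b4, a calcium pump gene at 2.39 to 2.52 FPKM in Control and 3.46 to 6.68 FPKM in GOF, rose by 1.27 (log2, edgeR adjusted p = 0.00556). Ppfia4, at most 0.69 FPKM in any library, rose by 3.50 (log2, edgeR adjusted p = 0.00160). The third was Chit1, at 0.0743 to 0.0972 FPKM in Control and 0.238 to 0.358 FPKM in GOF (edgeR adjusted p = 0.0191), a call lost without Control replicate 1 (0.0678), Control replicate 2 (0.0841), GOF replicate 0 (0.0622) or GOF replicate 2 (0.0572). Btg2, Gm38394 and Zbed6 did not pass, with log2 differences of 0.46, 0.21 and 0.21. Beside Bgn on chromosome X, 1 of 7 neighbours tested was called higher (background 6.69%) and none lower. This was Dusp9, a MAP kinase phosphatase gene, at a log2 difference of 1.75 (edgeR adjusted p = 0.00681). Bcap31 passed the adjusted p alone at 0.53 (edgeR adjusted p = 0.0254). Of the other neighbours of Bgn at 1 FPKM or more in at least 3 libraries, Zfp275, Haus7, Pnck and Slc6a8 did not pass, between -0.52 and 0.51. Around Podn, 9 were tested and 2 were called lower (background 5.64%), Slc1a7 at -2.33 and Echdc2 at -1.26 (log2, edgeR adjusted p = 0.00522 and 0.00175). Slc1a7 was at most 0.395 FPKM in any library, and its call was lost with limma on log2(FPKM + 1) (adjusted p = 0.06495). By adjusted p alone 4 of the 9 were lower (background 10.2%), with Scp2 and Cpt2 the additions. Cpt2 passed the adjusted p alone at -0.77 (edgeR adjusted p = 0.0339). Lrp8, Magoh, 0610037L13Rik, Zyg11b and Coa7 did not pass, between -0.32 and 0.49.

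**Figure D4:**
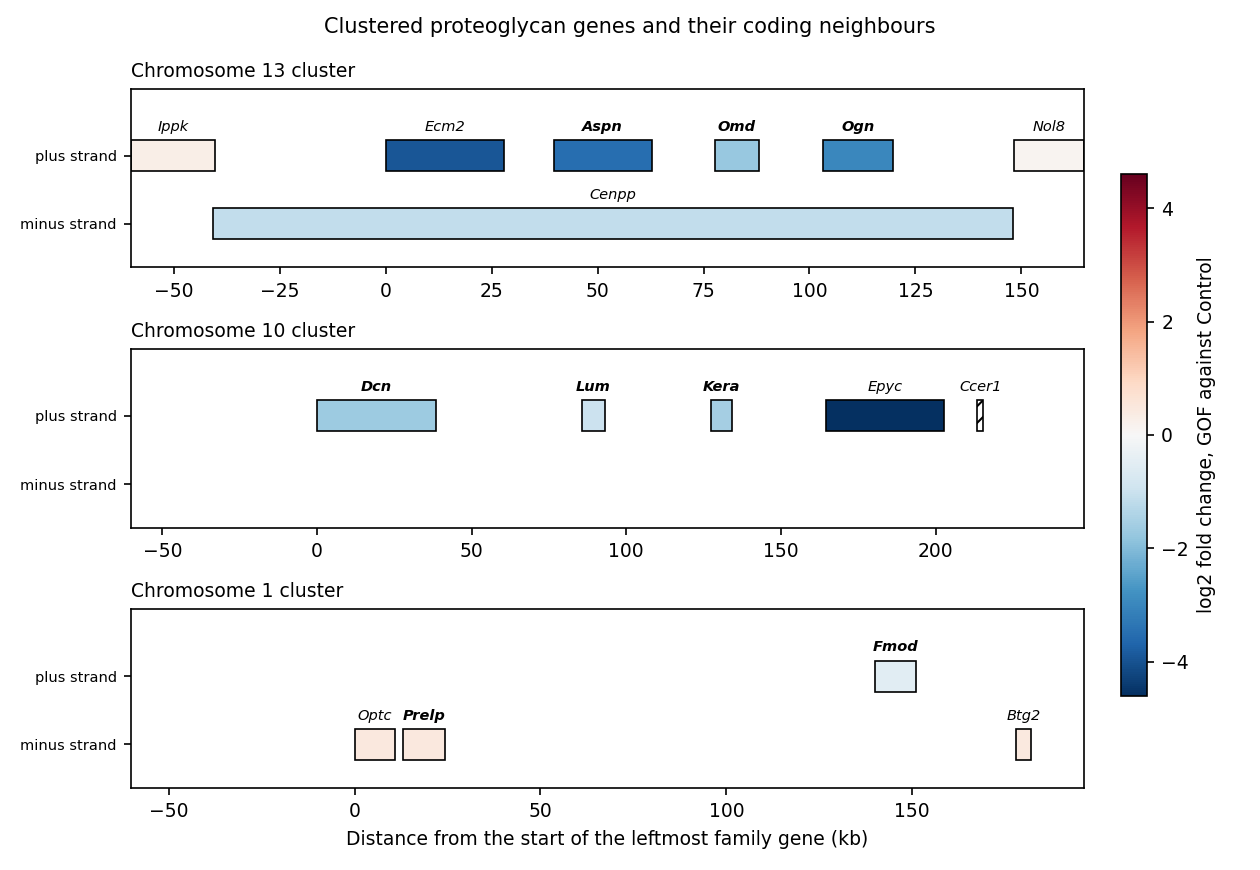
Coding genes in and around the 3 clusters, placed by distance in kb from the start of the leftmost family gene and by strand, colored by the fitted log2 fold change of GOF against Control, with the 10 genes in bold, untested genes hatched and genes at the margins (Ippk and Nol8) drawn in part. On chromosome 13 Ecm2, Aspn, Omd and Ogn are all blue inside the gene body of Cenpp while Nol8 beside them is near white, and on chromosome 1 Prelp, Optc and Fmod are pale.

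Ratios within clusters, chosen after the values were seen, put numbers on these differences. Omd to Aspn was 0.00634, 0.00619 and 0.00766 (FPKM ratio) in Control and 0.0196, 0.0100 and 0.0368 in GOF. The log2 ratio was 1.53 higher in GOF without overlap (two-sided exact permutation p = 0.1, the smallest that 3 against 3 libraries allow, and 0.2 after Benjamini-Hochberg adjustment over 4 ratios). Prelp to Fmod was 1.60, 2.14 and 2.34 in Control and 6.41, 2.68 and 4.04 in GOF, a log2 ratio 1.04 higher (exact permutation p = 0.1, adjusted 0.2). Ogn to Aspn overlapped, at a mean of 0.291 ± 0.0758 in Control and 0.389 ± 0.0664 in GOF (SD, n = 3 each, exact permutation p = 0.3, adjusted 0.4). Lum to Dcn was 0.136 ± 0.0217 and 0.186 ± 0.129 (SD, n = 3 each, exact permutation p = 1). None of the 4 ratios could reach an adjusted p under 0.05 in this design.

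Of 9 other genes of the leucine-rich family, 6 could be tested, and 2 were called lower (background 5.64%), Ecm2 and Epyc. Tsku, which encodes the secreted regulator tsukushi, rose, from 8.90, 12.7 and 11.9 FPKM in Control to 26.3, 21 and 32.0 FPKM in GOF. Its log2 difference was 1.22 (SE 0.217, edgeR adjusted p = 0.00794). Podnl1, the closest relative of Podn, was at 1.08, 0.714 and 1.06 FPKM in Control and 1.73, 1.53 and 1.70 FPKM in GOF, a log2 difference of 0.76 that passed the adjusted p alone (edgeR adjusted p = 0.0496). Chadl differed by -0.79 (log2, edgeR adjusted p = 0.0911). Chad, Nyx and Nepn were at most 0.2465 FPKM in any library and were not tested.

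The genes that build, supply, process, cut and bind these proteoglycans were then read from 8 lists. Of their 80 genes, 71 were tested, 5 were called lower (7.04%, beside 5.64% of all genes tested) and 6 higher (8.45%, beside 6.69%), with a median log2 difference of -0.072. These shares lie near the background, and the genes named below are described one by one. In the linker list, whose enzymes start chondroitin, dermatan and heparan sulfate chains, 1 of 7 was called. This was Pxylp1, a xylose phosphatase gene, at 5.01, 6.17 and 7.48 FPKM in Control and 11.6, 18.2 and 9.30 FPKM in GOF (log2 difference 1.02, edgeR adjusted p = 0.0266), a call lost without Control replicate 0 (0.0621), Control replicate 1 (0.0861), GOF replicate 0 (0.0743) or GOF replicate 1 (0.0606), and under the fold threshold with a block by animal (0.75 as a fixed term and 0.88 as a random effect). The xylosyltransferase gene Xylt2 passed the adjusted p alone at -0.51 (edgeR adjusted p = 0.0357). Of the 15 tested genes for chondroitin and dermatan sulfate, Chst13, a 4-O-sulfotransferase gene, was called. It rose from 0.0470, 0.185 and 0.0884 FPKM to 0.913, 0.813 and 0.754 FPKM (log2 difference 2.85, edgeR adjusted p = 0.00529). By adjusted p alone, 4 genes of this list were higher and 1 lower. Chst11 and Chst12, the more abundant 4-O-sulfotransferase genes, were among the higher, at 0.90 and 0.78 (edgeR adjusted p = 0.0188 and 0.0329). The lower was Csgalnact1, which starts chondroitin chains, at -0.97 (edgeR adjusted p = 0.00499). Chst11 passed both thresholds without Control replicate 2 (1.0) or GOF replicate 2 (1.05), and Csgalnact1 likewise without Control replicate 2 (-1.06) or GOF replicate 2 (-1.08).

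For keratan sulfate, the chain of several class II members, 1 of 5 tested genes was called. Chst1, the galactose 6-O-sulfotransferase gene, rose from 0.425, 0.161 and 0.224 FPKM to 3.07, 2.95 and 1.79 FPKM (log2 difference 3.23, edgeR adjusted p = 0.00174). B3gnt2 passed the adjusted p alone at 0.81 (edgeR adjusted p = 0.0210). None of the 6 sulfate supply genes was called by edgeR or by DESeq2, where 2 were lower and 2 higher at an unadjusted p under 0.05. Slc26a2, the sulfate transporter gene, and Papss2, which makes the sulfate donor, passed the adjusted p alone at 0.74 and 0.73 (edgeR adjusted p = 0.0101 and 0.0216). None of 4 tested genes for propeptide processing, Bmp1, Tll1, Pcolce and Pcolce2, was called by edgeR or DESeq2, with 1 lower at an unadjusted p under 0.05.

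**Figure D5:**
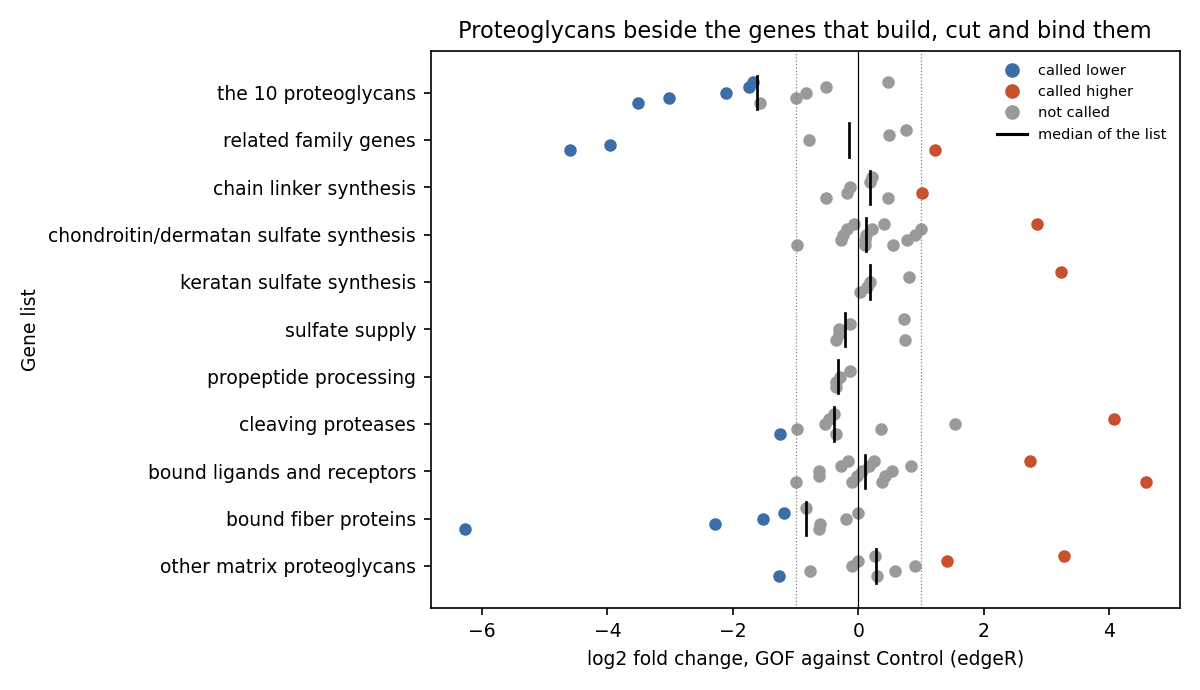
Fitted log2 fold changes of every tested gene in the 10 proteoglycans, in the 8 lists of genes that build, supply, process, cut and bind them, in related family genes and in other matrix proteoglycans, with called genes in blue (lower) and red (higher) and black bars at each list's median. The medians of most lists lie near 0, whereas those of the proteoglycans and of the fiber proteins are -1.62 and -0.84.

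Of 9 proteases that cut these core proteins, 1 was called lower and 1 higher. Adamts5, an aggrecanase gene, was at 69.1, 70.7 and 58.3 FPKM in Control and 26.8, 14.9 and 43.8 FPKM in GOF (log2 difference -1.25, edgeR adjusted p = 0.0256). The call was lost without Control replicate 1 (0.0698) or GOF replicate 0 (0.0980), and the fold threshold was missed without GOF replicate 1 (-0.98) and with a fixed block by animal (-0.95). Mmp2, gelatinase A, was not called (log2 difference -0.98, edgeR adjusted p = 0.112) but was lower past both thresholds with a block by animal (-1.06 as a fixed term, edgeR adjusted p = 0.00450, and -1.01 as a random effect, limma adjusted p = 0.0224) and without Control replicate 0 (-1.26, edgeR adjusted p = 0.0381). Mmp3, stromelysin, rose from 2.31, 6.62 and 7.81 FPKM to 60.8, 192 and 22.0 FPKM (log2 difference 4.08, edgeR adjusted p = 0.0145). Of 16 tested ligands and receptors that bind the proteoglycans, 2 were called higher. Tgfb2, a growth factor bound by decorin and biglycan, rose from 3.04, 3.0 and 2.25 FPKM to 17.3, 11.4 and 27.4 FPKM (log2 difference 2.73, edgeR adjusted p = 0.00111). Bmp2 had 3, 0 and 5 fragments in Control and 51, 113 and 41 in GOF (edgeR adjusted p = 0.00650). Tlr4, a receptor for free biglycan, passed the adjusted p alone at -0.63 (edgeR adjusted p = 0.00710). So did Ccn2 at 0.85 and Ccn4 at -0.997 (edgeR adjusted p = 0.0455 and 0.0485). Their means were 171 and 141 FPKM in Control and 313 and 70.8 FPKM in GOF. Ccn2 passed both thresholds without Control replicate 0 (1.13, edgeR adjusted p = 0.00738). Tgfb1 and Tgfb3 did not pass, at 0.43 and -0.17.

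The fiber proteins that small proteoglycans coat were called lower in 4 of 9 tested, beside 5.64% of all genes tested. Eln, elastin, was at 3.43, 11.2 and 8.97 FPKM in Control and 0.0957, 0.0140 and 0.177 FPKM in GOF (edgeR adjusted p = 0.00142). Col14a1, a fibril-associated collagen gene, fell by 2.29 on the log2 scale (edgeR adjusted p = 0.0173), with the call lost without GOF replicate 0 (0.0599) or GOF replicate 1 (0.0523). Col1a2 fell by 1.18 (log2, edgeR adjusted p = 0.0375), which was lost without Control replicate 1 (0.11), Control replicate 2 (0.105), GOF replicate 1 (0.116) or GOF replicate 2 (0.0919), and was under the fold threshold with a fixed block by animal (-0.88). Col1a1, its partner chain in type I collagen, differed by 0.004 (log2, edgeR adjusted p = 0.995). Fbn1, fibrillin, was the fourth (edgeR adjusted p = 0.0386), and its adjusted p was between 0.0587 and 0.118 without any one of Control replicates 1 and 2 and the GOF replicates. With a fixed block by animal Fbn1 missed both thresholds (log2 difference -0.88, edgeR adjusted p = 0.136). Col6a1 passed the adjusted p alone at -0.84 (log2, edgeR adjusted p = 0.0129). Col3a1, Col5a2 and Col12a1 had failed estimates and were left out. Among 10 tested matrix proteoglycans of other families, Vcan, which encodes versican, fell by 1.26 (log2, edgeR adjusted p = 0.00446), from 38.8, 45.9 and 46.5 FPKM to 16.9, 13 and 23.2 FPKM. Esm1 and Spock1 were called higher, both at most 0.574 FPKM in any library (edgeR adjusted p = 0.00199 and 0.0363), and Spock1 was lost with DESeq2 (adjusted p = 0.121), with a fixed block by animal (edgeR 0.137) and without any one library (0.0580 to 0.145).

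Marker genes of dermal fibroblasts and of other cells were read beside these results, and their part in them was not tested. The 7 fibroblast markers were all detected and summed to 2034 to 2740 FPKM in Control and 2318 to 2794 FPKM in GOF libraries. These sums hold opposite differences of abundant genes. Mean Col1a2 was 867 FPKM in Control and 387 FPKM in GOF, and mean Vim was 798 and 1339 FPKM. Of the 7 markers, 2 (Col1a2 and Fbn1) were called lower (background 5.64%). Vim passed the adjusted p alone and was higher, at 0.70 (log2, edgeR adjusted p = 0.0280). Its levels were 719, 866 and 810 FPKM in Control and 1307, 1204 and 1506 FPKM in GOF. Pdgfra, Thy1, Twist2 and Col1a1 did not pass, with log2 differences of -0.79, 0.295, 0.64 and 0.004. The 8 keratinocyte markers summed to at most 0.630 FPKM in any library, with Krt14 at 0 in 5 of 6. Of 3 tendon markers, Tnmd, which encodes tenomodulin, fell by 2.86 (log2, edgeR adjusted p = 9.34e-05), from 46.6 to 48.9 FPKM in Control to 6.17 to 7.09 FPKM in GOF. Scx and Mkx, transcription factors of tendon, were called in neither direction, at 0.86 and 0.89 (edgeR adjusted p = 0.0642 and 0.0423), and the tendon sum was 52.5 to 57.0 FPKM in Control and 17.5 to 24.0 FPKM in GOF. The 5 cartilage markers summed to 1.40 to 2.38 FPKM in Control and 0.259 to 0.535 FPKM in GOF. Sox9 was called lower there (edgeR adjusted p = 0.00416), while the defining Acan and Col2a1 were at most 0.0173 FPKM in any library. The 5 bone markers summed to 2.42 to 3.38 FPKM in Control and 2.13 to 3.35 FPKM in GOF. Among them Alpl was called lower (log2 difference -2.29, edgeR adjusted p = 0.0172), a call lost without Control replicate 1 (0.0585) or Control replicate 2 (0.0530), and Runx2 passed the adjusted p alone at 0.80 (edgeR adjusted p = 0.0417). The 6 skeletal muscle markers summed to 23.3 to 27.6 FPKM in Control and 138 to 173 FPKM in GOF, nearly all from Acta1, which was called higher, while Myod1 was at 0 in 5 of 6 libraries. The 4 adipocyte markers summed to 7.18 to 8.95 and 1.80 to 3.17 FPKM, nearly all from Fabp4, which was called lower, with Adipoq at most 0.0946 FPKM. Endothelial markers summed to 4.32 to 4.47 and 2.68 to 6.54 FPKM, macrophage markers to 2.51 to 3.44 and 4.38 to 7.62 FPKM, and pericyte and smooth muscle markers to 14.8 to 24.8 and 17.6 to 33.6 FPKM in Control and GOF libraries. Of the endothelial markers Kdr was called higher (log2 difference 1.77, edgeR adjusted p = 0.0110) and Tek lower (-2.27, edgeR adjusted p = 0.0190), the latter lost without GOF replicate 0 (0.0855). The macrophage sums came nearly all from Csf1r, which was called higher (log2 difference 1.52, edgeR adjusted p = 0.00186), and Cd68. Cd68 was not called (0.20, edgeR adjusted p = 0.758), while Ptprc, Adgre1 and Itgam were at most 0.120 FPKM in any library and not called.

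For the most abundant gene and for the called gene with the largest change, the genes with the most similar profile were found. The measure was the root mean square difference of log2(CPM + 1) over the 6 libraries, centered on each gene's mean. CPM are the fragment counts scaled to library size, and the added 1 makes differences smaller for genes at low levels. Nearest to Dcn were Prkg2 (0.123), Cyp7b1 (0.131) and Megf10 (0.151). Their mean levels were 6.00 ± 1.3, 3.56 ± 0.545 and 3.82 ± 0.648 FPKM in Control and 1.68 ± 0.439, 0.756 ± 0.484 and 1.26 ± 0.491 FPKM in GOF (SD, n = 3 each). Nearest to Aspn were C1qtnf7 (0.250), Slc1a3 (0.28) and Gas2 (0.331). Their levels were 10.4 ± 1.79, 5.01 ± 0.387 and 47.2 ± 6.04 FPKM in Control and 0.540 ± 0.176, 0.498 ± 0.215 and 5.5 ± 0.451 FPKM in GOF (SD, n = 3 each). The fitted log2 differences were -2.02, -2.16 and -1.59 for Prkg2, Cyp7b1 and Megf10, beside -1.67 for Dcn. For C1qtnf7, Slc1a3 and Gas2 they were -4.28, -3.92 and -3.00, beside -3.51 for Aspn. These lists describe likeness over 6 libraries of 2 groups and carry no test.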

How the data were processed

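Stranded, paired-end libraries of 3 Control and 3 GOF cultures were sequenced. The submitters' processing notes name mm10, TopHat and Cuffdiff, with versions not given in the sources used here. The estimated counts were deposited as fragments assigned to each gene and library, without normalization. FPKM values were deposited after the authors' Cuffdiff run scaled them by length and between libraries. The lncRNA file and another 2 per-library columns were left aside. GENCODE M21 on GRCm38 gave names and positions for 97.9% of identifiers. A set of 32 genes with a failed estimate was left out. The remaining estimated counts (4.95% not whole) were rounded and tested in R 4.3.3 with edgeR 4.0.16 (TMM, filterByExpr, quasi-likelihood test, Benjamini-Hochberg adjustment over 15462 genes), and a gene was called at an adjusted p under 0.05 with a fold change over 2. limma 3.58.1 and DESeq2 1.42.0 were alternatives, and files were read with the data.table package, version 1.17.8. The scripts were tested on simulated data. The 10 genes, the gene lists and the named-gene rule were chosen with earlier results of these data known. The rule names all 10 genes, neighbours within 250 kb at 1 FPKM or more in 3 libraries, up to 3 called genes of each list with the smallest adjusted p, all related family genes and 3 genes most like Dcn and Aspn in profile. A neighbour that the rule selects is not reported here. Other genes named were chosen after their values were seen. Cultures of one group came from separate animals, whereas same-numbered cultures of the groups did not share an animal. Deviations from group means correlated at 0.415 and 0.508 between cultures of one animal, which the labels name. Protein sequences were not used here.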

Additional observations from a re-analysis of the deposited data

How the results depend on the processing

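The counts of called genes and the fitted differences of the 10 genes and of part of the other named genes were recomputed under 18 alternatives. These were DESeq2, library totals, upper-quartile factors, no filter on low counts, an FPKM of at least 1 in 3 libraries, a test against a fold change of 2, limma on log2(FPKM + 1) or log2(FPKM + 0.1), failed estimates kept, 3 replicate blocks and each library left out. The shares, ratios, marker sums and profile likeness were not recomputed. Other named genes, such as Ccn4, Mkx and Runx2, were not refitted either. Of 179 fits of the 10 genes, 162 kept their direction and their side of the thresholds, and in none did the direction reverse. Aspn and Ogn were called in all 18, with log2 differences of -3.65 to -3.31 and -3.21 to -2.79. Kera could not be fitted with the FPKM minimum. The number of the 10 genes called lower was 2 with the test against a fold change of 2 and 3 to 5 with 1 library left out. It was 4 with a replicate block by label number, 7 with a fixed block by animal and 6 with a random one. The fixed block by animal draws the difference only from the 2 animals with cultures in both groups. Numbered pairs did not deviate together (r = -0.456, 0.031 and -0.473), and the number links no shared animal. The number without overlap of FPKM was 6 to 9 with 1 library left out, and 6 on 2 CPM scales chosen after seeing the data. Over the 8 lists, 1 gene was called lower with the test against a fold change of 2, 3 with the replicate block by label number and 3 with the fixed block by animal, and 1 to 6 with 1 library left out, beside 5. Higher genes there numbered 3 with limma on log2(FPKM + 1), beside 6, and 5 to 7 with 1 library left out. The sign of Col1a1 was reversed with library totals (-0.024), upper-quartile factors (-0.049), no filter (-0.003) and without Control replicate 1 (-0.208), Control replicate 2 (-0.148) or GOF replicate 0 (-0.423), over a range of -0.423 to 0.454 with 1 library left out. The cause of these shifts was not tested, although leaving out a library leaves fewer samples and the test against a fold change of 2 is stricter by construction. Depth limits Kera, Omd and Epyc, which had at most 205 fragments in any library, and the exact permutation test cannot go below 0.1.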
